A study of Mus musculus with 2 samples.

Results

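The lipases, fatty acid uptake receptors and fatty acid binding proteins (FABPs) of the liver were followed in 2 liver sections by spatial transcriptomics (ST). The set held 9 genes chosen by symbol, Lpl, Lipc, Cd36, Vldlr, Fabp1, Fabp2, Fabp4, Fabp5 and Fabp7, of the 19465 genes on the probe set, and all 9 were found. One section came from an AEG-1ΔMAC mouse, in which floxed Mtdh, the gene of AEG-1, is deleted by Cre recombinase made from the Lyz2 locus, which is active in macrophages and other myeloid cells. The other came from an AEG-1fl/fl littermate control, which carries the floxed gene without Cre. Both mice were 27 weeks old. The sample labels place both on a high-fat, high-sugar diet (HF/HSD) that began at 7 weeks of age. The study, however, names the control diet for this assay in its abstract, results, figure legends and methods. The diet of these mice was therefore not settled here. With 1 mouse and 1 library per genotype there is no replicate check. A difference between the libraries cannot be told apart from a difference between 2 mice or 2 sections, and all intervals given below are 95% intervals that cover counting error only.

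Lipoprotein lipase and hepatic lipase are secreted enzymes that split the triglycerides of lipoproteins and so release fatty acids. CD36 and the VLDL receptor bring fatty acids and triglyceride-rich particles to the cell, and FABPs carry fatty acids inside it. In the healthy adult liver, hepatocytes are the main source of hepatic lipase and of FABP1, while lipoprotein lipase, FABP4 and FABP5 are better known from fat, muscle, endothelium and macrophages. Kupffer cells (KCs), the resident macrophages of the liver, line the sinusoids beside the hepatocytes.

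Depth was similar in both libraries, and the deleted gene did not stand apart at the level of whole tissue. After a spot filter at the thresholds the study names, 2140 AEG-1ΔMAC and 2540 AEG-1fl/fl spots held 45453286 and 50322850 unique molecular identifiers (UMIs), with medians of 20930 and 18285 UMIs per spot. The libraries shared 1782 spot barcodes, which belong to the fixed positions of the array and not to shared cells. Mtdh was at 66.3 and 60.2 counts per 1000000 UMIs of the library (CPM) in the AEG-1ΔMAC and the AEG-1fl/fl library. This is the level of whole tissue, in which cells without Cre also express Mtdh, and it does not check the deletion in KCs. The median log2 ratio over the 6933 genes that averaged 10 CPM or more was 0.15, and the 5th and 95th percentiles were -0.29 and 0.54. All 6 hepatocyte index genes were lower in AEG-1ΔMAC, with summed levels of 61731 and 72135 CPM. Of 7 further hepatocyte genes, 5 were lower and 2 higher. The lowest were Alb at a log2 ratio of -0.69 (87957 and 141947 CPM) and Hpx at -0.47. Apob was higher at 0.29 and Cps1 at 0.18, and Vtn was near 0 at -0.03. The 3 KC index genes, Clec4f, Cd5l and Vsig4, summed to 527 and 486 CPM, with log2 ratios of 0.05, 0.21 and -0.07. Of 11 further KC and macrophage genes, 7 were higher and 4 lower in AEG-1ΔMAC, from -1.38 for Marco to 1.44 for Cd163. All 4 MHC class II genes were higher in AEG-1ΔMAC, with sums of 787 and 388 CPM. Of 9 evening-phase clock genes, 8 were higher in AEG-1ΔMAC, with sums of 257 and 112 CPM. The part of these differences in the results below was not tested.

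The 250 bases before the RefSeq start of Fabp1 and of Fabp7 are shown because, of the 3 FABPs of the set with a RefSeq promoter, Fabp7 had the highest and Fabp1 the lowest contrast with KC RNA in both sections, as described further on. Both come from RefSeq on GRCm38.p6, the plus strand, 5′ to 3′. RefSeq promoters were matched for 6 of the 9 members, and Lpl, Fabp4 and Fabp5 were not among them. Capitals mark 3 motifs searched on both strands, the nuclear receptor half-site AGGTCA, the PU.1 core GAGGAA and the TATA box TATAAA.
Fabp1, chr6:71199629-71199878: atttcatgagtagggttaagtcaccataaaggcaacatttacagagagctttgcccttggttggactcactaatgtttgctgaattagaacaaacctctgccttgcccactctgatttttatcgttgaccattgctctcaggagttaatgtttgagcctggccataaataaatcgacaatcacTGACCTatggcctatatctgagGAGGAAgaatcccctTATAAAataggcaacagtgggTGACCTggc
Fabp7, chr10:57784673-57784922: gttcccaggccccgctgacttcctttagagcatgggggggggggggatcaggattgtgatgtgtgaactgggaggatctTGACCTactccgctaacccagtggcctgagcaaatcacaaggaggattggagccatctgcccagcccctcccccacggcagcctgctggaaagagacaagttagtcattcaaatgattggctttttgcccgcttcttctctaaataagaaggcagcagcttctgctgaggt
The Fabp1 window held the half-site at -67 and -9 on the other strand, GAGGAA at -45 and TATAAA at -30, counted from the RefSeq start to the first base of the motif. The RefSeq starts lie 52 bases for Fabp1 and 42 bases for Fabp7 inside the GENCODE genes, whose coordinates are given with the levels below. The Fabp7 window held a single half-site, at -171 on the other strand. Of 32851 RefSeq promoter windows of the same length, 14.0% held AGGTCA, 23.3% held GAGGAA and 12.4% held TATAAA. These matches are letters in a window and were not tested as sites.

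Lpl showed the lowest ratio of the set. Lpl (ENSMUSG00000015568, chromosome 8, 68880491 to 68907448 on GRCm38) encodes lipoprotein lipase, which hydrolyses triglycerides of circulating lipoproteins. Its level was 50.8 CPM in AEG-1ΔMAC (2311 UMIs, interval 48.8 to 53.0) against 191 CPM in AEG-1fl/fl (9633 UMIs, interval 188 to 195). It was thus 3.76-fold lower in the AEG-1ΔMAC section, for a log2 ratio of -1.91 (interval -1.98 to -1.85), and 0.0577% of these 6933 genes had a lower ratio. Lpl was spread through the tissue in both sections and was not concentrated in a few spots. At least 1 Lpl UMI was seen in 61.1% of spots in the AEG-1ΔMAC section against 94.4% in the AEG-1fl/fl section, or in 23.2% and 61.1% when every spot was thinned to 5000 UMIs, and no spot held more than 10 and 17 UMIs of it. The 5% of spots with most Lpl held 20.4% and 13.6% of its UMIs. Of 6 adipocyte markers, only Car3, which hepatocytes also make, was abundant. Adipoq was at 1 UMI in each library, Plin1 at 1 and 0 UMIs and Cfd at 5 and 7 UMIs.

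Lipc moved the other way. Lipc (chromosome 9, 70798128 to 70952226) encodes hepatic lipase, which acts on lipoprotein remnants and high-density lipoprotein at the sinusoidal surface. It was at 115 CPM in AEG-1ΔMAC against 79.7 CPM in AEG-1fl/fl, for a log2 ratio of 0.53 (interval 0.47 to 0.59). Against the median of all genes this was higher by 0.38 on the log2 scale, short of a 2-fold difference.

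None of the genes that work with or beside these lipases and could be compared was 2-fold lower or higher. Few of all genes were, 0.519% lower and 1.27% higher in AEG-1ΔMAC. A count of 0 in lists this short is near that share and does not set these genes apart. Of the 12 partners and regulators of LPL, 0 of 12 were 2-fold higher or lower, and their median log2 ratio was 0.19 against 0.15 for all genes. The highest was Pcsk6, a proprotein convertase, at 0.63, and the lowest was Apoc2, the apolipoprotein that activates LPL, at -0.42. Gpihbp1, which anchors LPL to capillary endothelium, was at 69.3 and 72.2 CPM. Angptl4, an inhibitor of LPL, was at 81.6 and 62.1 CPM, for a log2 ratio of 0.39 (interval 0.32 to 0.46). Of 8 other lipases that could be compared, 0 of 8 passed 2-fold, with a median of 0.22, from -0.41 for Lipa, the lysosomal acid lipase, to 0.95 for Ces3b, a carboxylesterase.

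Both uptake receptors were lower in AEG-1ΔMAC by value, and only Cd36 had the counts to place it. Cd36 (chromosome 5, 17781690 to 17888801) encodes a fatty acid translocase and scavenger receptor. It was at 57.0 CPM in AEG-1ΔMAC against 88.3 CPM in AEG-1fl/fl, for a log2 ratio of -0.63 (interval -0.70 to -0.56), and 1.56% of all genes lay lower. Vldlr (chromosome 19, 27216484 to 27254231) encodes a receptor for very low density lipoprotein. Its counts were few, with 61 UMIs (1.34 CPM) in AEG-1ΔMAC and 83 UMIs (1.65 CPM) in AEG-1fl/fl. The interval of its log2 ratio, -0.80 to 0.20, held 0, so a difference was not detectable at this depth.

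The 10 other uptake genes that could be compared lay closer to the median of all genes than Cd36 did. Of them, 0 of 10 passed 2-fold in either direction, which is near the share of all genes, 0.519% lower and 1.27% higher. Their median log2 ratio was 0.10, from -0.37 for Sdc1, a heparan sulfate proteoglycan that binds remnant lipoproteins, to 0.39 for Lrp1, a remnant receptor. Slc27a2 and Slc27a5, which transport and activate fatty acids in hepatocytes, were at 0.37 and 0.18.

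The 5 FABPs fell into different ranges. Fabp1 (chromosome 6, 71199827 to 71205023), the liver type, was at 763 and 754 CPM in AEG-1ΔMAC and AEG-1fl/fl, for a log2 ratio of 0.02 (interval -0.00 to 0.04). Fabp2 (chromosome 3, 122895072 to 122899506), the intestinal type, was at 145 and 151 CPM, for a log2 ratio of -0.06 (interval -0.11 to -0.01). These levels differed little between the sections, and both ratios lay below the median of all genes. The sign for Fabp1 turned with the scaling, to -0.11 with trimmed mean of M values (TMM) factors. The 6 intestinal marker genes measured had 9 and 17 UMIs together, with Sis and Cdx1 at 0.

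Fabp5 was lower by nearly as much as Lpl. Fabp5 (ENSMUSG00000027533, chromosome 3, 10012548 to 10016607), the epidermal type and one of the KC markers used in the study, was at 33.3 CPM in AEG-1ΔMAC (1513 UMIs, interval 31.6 to 35.0) against 119 CPM in AEG-1fl/fl (5979 UMIs, interval 116 to 122). It was thus 3.57-fold lower in the AEG-1ΔMAC section, for a log2 ratio of -1.84 (interval -1.92 to -1.75), with 0.0721% of all genes lower. Thinned to 5000 UMIs per spot, 14.8% of spots in the AEG-1ΔMAC section against 43.0% in the AEG-1fl/fl section had a Fabp5 UMI. Fabp4 (chromosome 3, 10204088 to 10208576), the adipocyte type, also found in endothelium and macrophages, was at 23.9 CPM (interval 22.5 to 25.3) and 44.5 CPM (interval 42.7 to 46.4), for a log2 ratio of -0.90. This ratio passed 2-fold under 3 other scalings, at -1.02 to -1.04. The gene lies 187 kb from Fabp5. Of the family genes near them, Pmp2 and Fabp9 had 0 UMIs in both libraries, and Fabp12 had 31 and 79 UMIs.

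Fabp7 was the only FABP with a higher level in AEG-1ΔMAC beyond the median of all genes. Fabp7 (chromosome 10, 57784881 to 57788450), the brain type, was at 10.1 CPM (459 UMIs) and 7.05 CPM (355 UMIs), for a log2 ratio of 0.52 (interval 0.31 to 0.72). Among the 7 members that averaged 10 CPM or more, which leaves out Vldlr and Fabp7, 2 were at least 2-fold lower in AEG-1ΔMAC, Lpl and Fabp5, where 0.519% of all genes were. None of the 7 was at least 2-fold higher, where 1.27% of all genes were.

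**Figure D1:**
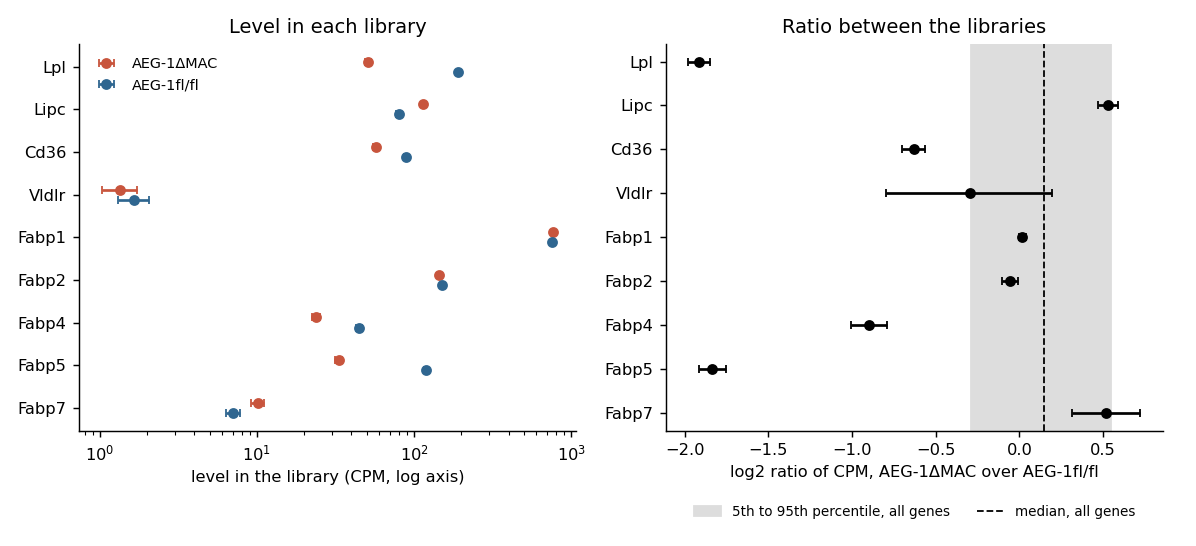
Left, level of each gene in CPM on a log axis in the AEG-1ΔMAC and AEG-1fl/fl libraries (points) with exact Poisson 95% intervals (bars). Right, log2 ratio of AEG-1ΔMAC over AEG-1fl/fl with exact binomial 95% intervals, the median of all genes (dashed, 0.15) and their 5th to 95th percentile range (grey). Lpl at -1.91 and Fabp5 at -1.84 lie farthest from the grey range, followed by Fabp4 and Cd36. Fabp1 and Fabp2 lie inside it, and so do Lipc and Fabp7, near its upper edge. Vldlr, on few UMIs, lies at its lower edge.

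Acyl-CoA handling and targets of PPARs, the nuclear receptors that bind fatty acids, held no 2-fold differences among the genes that averaged 10 CPM or more. This is near the share of all genes, of which 0.519% were 2-fold lower and 1.27% higher. Of 6 other FABP family and acyl-CoA genes that could be compared, 0 passed 2-fold. Their median log2 ratio was -0.38 against 0.15 for all genes, and 5 of the 6 had an interval below 0 and 1 above it. Values ran from -0.54 for Acsl5 to 0.47 for Acsl1, both of which activate long-chain fatty acids. Of 10 PPAR targets outside the set, 0 passed 2-fold and the median was -0.06, with 5 intervals below 0 and 4 above it. The lowest was Cyp4a14, a fatty acid omega-hydroxylase, at -0.80, and the highest was Vnn1, a pantetheinase, at 0.42. Plin2, which coats lipid droplets, was at 408 and 547 CPM. Below the minimum of 10 CPM, Pdk4, a brake on glucose oxidation, and Fgf21, a hepatokine, were at log2 ratios of -1.51 and -1.50.

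Lpl, Fabp2 and Fabp4 were highest around the central vein in both sections. Spots were ranked along the lobule from periportal (zone 1) to pericentral (zone 3) with the zone markers of the study, none of which is in the set, and divided into 3 equal parts. The ranking placed 4 zone 3 landmark genes that it did not use at log2 ratios of 1.87 to 3.29 (zone 3 over zone 1 part). Of 6 zone 1 landmarks, all 6 lay below 0 in AEG-1ΔMAC against 5 of 6 in AEG-1fl/fl, where Apoa4 was at 0.01. Lpl was at 39.2 CPM in the zone 1 part, 42.7 CPM in the middle part and 71.0 CPM in the zone 3 part of AEG-1ΔMAC, for a log2 ratio of 0.86 (interval 0.71 to 1.01). In AEG-1fl/fl it was at 149, 186 and 240 CPM, for a log2 ratio of 0.68 (interval 0.61 to 0.76). The slope was therefore toward zone 3 in both, and the lowest part of AEG-1fl/fl was above the highest part of AEG-1ΔMAC. Fabp2 rose along the same axis, from 104 to 189 CPM (0.86) in AEG-1ΔMAC, while the levels went from 120 to 193 CPM (0.68) in AEG-1fl/fl. Fabp4 rose from 18.0 to 34.3 CPM (0.93) and from 31.7 to 62.1 CPM (0.97).

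Fabp5 sloped toward zone 3 in AEG-1fl/fl and was nearly flat in AEG-1ΔMAC. In AEG-1fl/fl it was at 102, 118 and 138 CPM from zone 1 to zone 3, for a log2 ratio of 0.44 (interval 0.35 to 0.53). In AEG-1ΔMAC it was at 30.1, 36.1 and 33.6 CPM, for a log2 ratio of 0.16 whose interval, -0.03 to 0.35, held 0. The intervals only touch, at 0.35, and whether the slopes differ was not tested. Fabp1 was higher in zone 3 by 0.11 in AEG-1ΔMAC against 0.33 in AEG-1fl/fl, and Lipc by 0.16 and 0.18. Cd36 did not differ between the zone 1 and zone 3 parts beyond counting error, with -0.02 (interval -0.16 to 0.12) and -0.07 (interval -0.17 to 0.04). Between the outermost 10% of spots at each end, however, Cd36 was higher at the zone 3 end in both sections. It went from 50.2 CPM (interval 43.8 to 57.3) at the zone 1 end to 66.9 CPM (interval 59.5 to 75.0) in AEG-1ΔMAC, for a log2 ratio of 0.41. The AEG-1fl/fl levels were 78.2 CPM (interval 70.5 to 86.4) and 98.3 CPM (interval 89.0 to 108), for a log2 ratio of 0.33. Cd36 did not rise steadily between these ends. Over 10 equal bins from the zone 1 end, its AEG-1fl/fl level was already 97.4 CPM in bin 2, with 80.4 CPM in bin 7. For AEG-1ΔMAC, bin 3 held 64.1 CPM, bin 6 held 51.1 CPM and bin 9 held 61.8 CPM. The difference between the ends is therefore not a slope along the lobule. Vldlr, on few UMIs, was mainly pericentral, with 12 and 36 UMIs in the zone 1 and zone 3 parts of AEG-1ΔMAC and 12 and 51 in AEG-1fl/fl.

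Fabp7 sloped toward zone 1 in AEG-1fl/fl. It was at 7.97 CPM in the zone 1 part and 5.20 CPM in the zone 3 part of AEG-1fl/fl, for a log2 ratio of -0.62 (interval -1.03 to -0.21), against 9.87 and 9.93 CPM in AEG-1ΔMAC, for a log2 ratio of 0.01 (interval -0.33 to 0.35). Between the outermost 10% of spots the log2 ratio was -0.51 in AEG-1ΔMAC against -0.64 in AEG-1fl/fl. These rest on 41 UMIs at the zone 1 end and 29 at the zone 3 end in AEG-1ΔMAC, and on 38 and 21 in AEG-1fl/fl. In each section the CPM intervals of both ends overlapped. Whether the slopes differ was not tested. Counted at 1.5-fold among the 7 members of at least 10 CPM, Lpl, Fabp2 and Fabp4 were higher in zone 3 in each library, 3 of 7, where 2.97% of all genes were in AEG-1ΔMAC against 2.84% in AEG-1fl/fl. None of the 7 was 1.5-fold higher in zone 1, where 2.03% and 1.75% of all genes were.

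**Figure D2:**
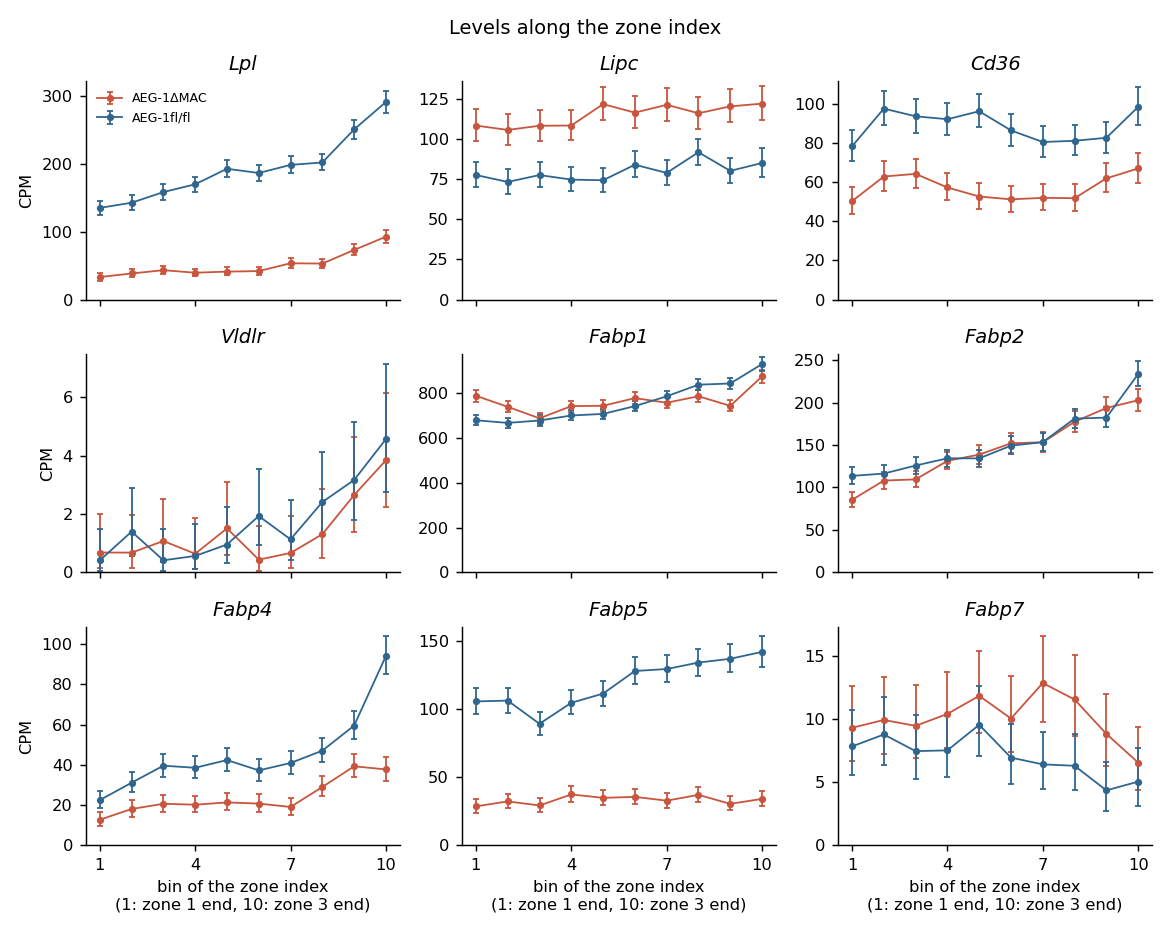
Level in CPM of each gene in 10 equal bins of the zone index, from the zone 1 end (bin 1) to the zone 3 end (bin 10), in AEG-1ΔMAC (red) and AEG-1fl/fl (blue), with exact Poisson 95% intervals (bars). Lpl, Fabp2, Fabp4 and Vldlr climb toward bin 10 in both libraries. Fabp5 in AEG-1ΔMAC stays between 28.6 and 37.4 CPM across all 10 bins, while in AEG-1fl/fl it runs from 89.4 to 142 CPM.

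The lower levels of Lpl and Fabp5 in AEG-1ΔMAC were present along the whole lobule. The log2 ratio of Lpl between the libraries was -1.93 in the zone 1 part, -2.13 in the middle part and -1.76 in the zone 3 part, and that of Fabp5 was -1.76, -1.70 and -2.03. Fabp4 and Cd36 were also lower in each part, at -0.82, -1.04 and -0.86 and at -0.59, -0.76 and -0.54. The log2 ratio of Fabp7 was 0.31, 0.41 and 0.93, and its interval in the zone 1 part, -0.04 to 0.66, held 0. Fabp1 turned from 0.12 in the zone 1 part to -0.10 in the zone 3 part. The median of all genes was between 0.13 and 0.16 in each part.

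The contrasts of Lpl and Fabp5 with KC RNA lay below those of the macrophage genes in both sections. A spot holds several cells of different types, so spots were ranked by their share of UMIs from Clec4f, Cd5l and Vsig4 inside 5 bins of the zone index, and within each library the 20% of spots with most KC RNA were set against the 20% with least. This contrast separated macrophage RNA well. In the 10 macrophage genes kept out of the index it gave a median log2 ratio of 1.24 in AEG-1ΔMAC (0.52 to 1.44 over the genes) and 1.02 in AEG-1fl/fl (0.54 to 1.43), while 7 hepatocyte genes had medians of 0.05 and 0.05 and all genes had -0.06 and -0.06. Lpl was at 55.3 CPM in KC-rich and 52.9 CPM in KC-poor spots of AEG-1ΔMAC, for a log2 ratio of 0.06 (interval -0.12 to 0.25). In AEG-1fl/fl it was at 184 and 194 CPM, for a log2 ratio of -0.08 (interval -0.17 to 0.02). Both intervals lay below the values of all 10 macrophage genes and overlapped those of the hepatocyte genes. Ranked by C1qa, C1qb, C1qc, Csf1r and Adgre1, Lpl in AEG-1ΔMAC was at 0.21, with an interval of 0.02 to 0.40 that lay above 0. Without zone bins the AEG-1fl/fl value was -0.43, a ranking that does not hold the zone constant. In a spot of mixed cells, fewer cells of a type and less RNA per cell cannot be told apart.

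Fabp5, although used as a KC marker in the study, was lower in the KC-rich spots of AEG-1fl/fl. It was at 101 CPM in KC-rich and 130 CPM in KC-poor spots there, for a log2 ratio of -0.37 (interval -0.50 to -0.25), and 4.36% of all genes had a lower contrast. In AEG-1ΔMAC it was at 33.7 and 33.6 CPM, for a log2 ratio of 0.00 (interval -0.23 to 0.24). That value moved to -0.59 (interval -1.09 to -0.10) when spots were thinned to 5000 UMIs, and the AEG-1fl/fl value moved to -0.22 (interval -0.46 to 0.02). None of the 6 alternative settings placed Fabp5 higher in KC-rich spots beyond counting error in either library. Across 5 equal levels of the KC index, Fabp5 fell stepwise in AEG-1fl/fl from 130 to 100 CPM and kept to 32.1 to 34.0 CPM in AEG-1ΔMAC.

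Fabp7, at a low level, was the member whose contrast reached the range of the macrophage genes. It was at 15.0 CPM in KC-rich and 5.88 CPM in KC-poor spots of AEG-1ΔMAC, for a log2 ratio of 1.35 (interval 0.88 to 1.84), and at 9.40 and 5.65 CPM in AEG-1fl/fl, for a log2 ratio of 0.73 (interval 0.22 to 1.25). At this depth thinning left too few UMIs to place it, with intervals of -0.09 to 1.77 and -0.45 to 1.84. Cd36 was higher in KC-rich spots of AEG-1fl/fl by 0.37 (interval 0.23 to 0.51) and in AEG-1ΔMAC by 0.15, whose interval, -0.03 to 0.33, held 0. Fabp4 lay on opposite sides, at -0.34 (interval -0.62 to -0.06) in AEG-1ΔMAC against 0.39 (interval 0.18 to 0.59) in AEG-1fl/fl. Ranked by C1qa, C1qb, C1qc, Csf1r and Adgre1, however, Fabp4 was at 0.057 (interval -0.22 to 0.34) in AEG-1ΔMAC. Fabp1 was lower in KC-rich spots of both, by value -0.16 and -0.24. Like Fabp5, Lipc and Fabp2 were lower in KC-rich spots of AEG-1fl/fl, each at -0.21 (intervals -0.36 to -0.06 and -0.31 to -0.10). In AEG-1ΔMAC these 2 genes were at 0.06 and 0.02, with intervals that held 0.

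Counted at 1.2-fold among the 7 members of at least 10 CPM, 0 were higher in KC-rich spots of AEG-1ΔMAC, where 2.7% of all genes were, and 1 was lower, Fabp4, where 8.08% were. In AEG-1fl/fl 2 were higher, Cd36 and Fabp4, where 4.28% of all genes were, and 1 was lower, Fabp5, where 8.29% were.

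**Figure D3:**
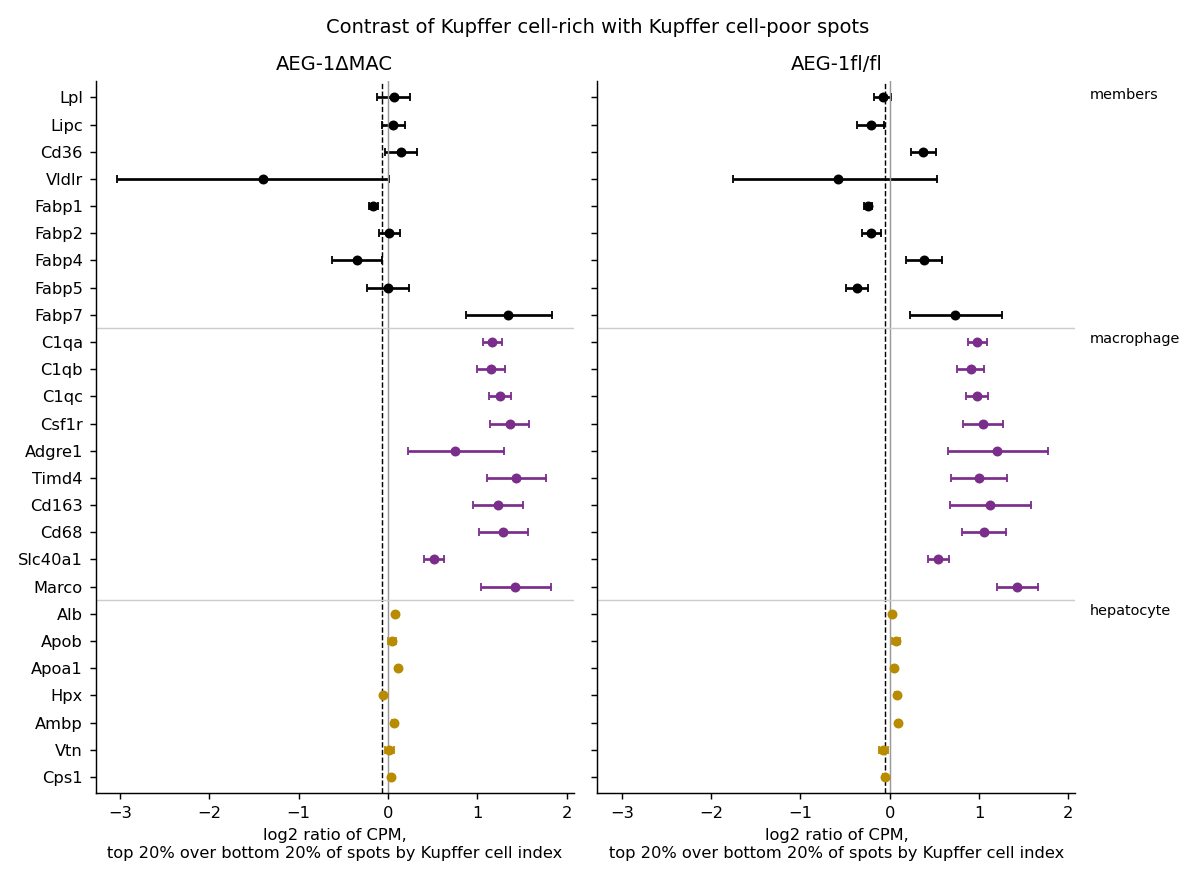
Log2 ratio of CPM in the top over the bottom 20% of spots by the KC index, ranked inside zone bins, in AEG-1ΔMAC (left) and AEG-1fl/fl (right), for the 9 members (black), 10 macrophage genes outside the index (purple) and 7 hepatocyte genes (yellow), with exact binomial 95% intervals and the median of all genes (dashed). The macrophage genes lie between 0.52 and 1.44, Lpl and Fabp5 lie with or below the hepatocyte genes, and Fabp7 lies with the macrophage genes.

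The lower levels in AEG-1ΔMAC were found in KC-rich and KC-poor spots alike. In KC-rich spots the log2 ratio between the libraries was -1.74 for Lpl (interval -1.89 to -1.59) and -1.58 for Fabp5 (interval -1.78 to -1.39). In KC-poor spots it was -1.88 (interval -2.02 to -1.73) and -1.95 (interval -2.14 to -1.77). Both genes were thus lower in AEG-1ΔMAC by over 2-fold in the spots with least KC RNA too. These KC-poor spots still held macrophage RNA. Their C1qa level was 114 CPM, against 256 CPM in KC-rich spots, for the AEG-1ΔMAC section. The AEG-1fl/fl section had 108 CPM in KC-poor spots, against 214 CPM in KC-rich ones. The levels of Lpl and Fabp5 in tissue without KCs were therefore not tested. For Fabp4 the ratio was -1.20 in KC-rich and -0.47 in KC-poor spots, and for Fabp7 0.67 and 0.06. Whether the ratio of a gene differs between the 2 kinds of spot was not tested.

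**Figure D4:**
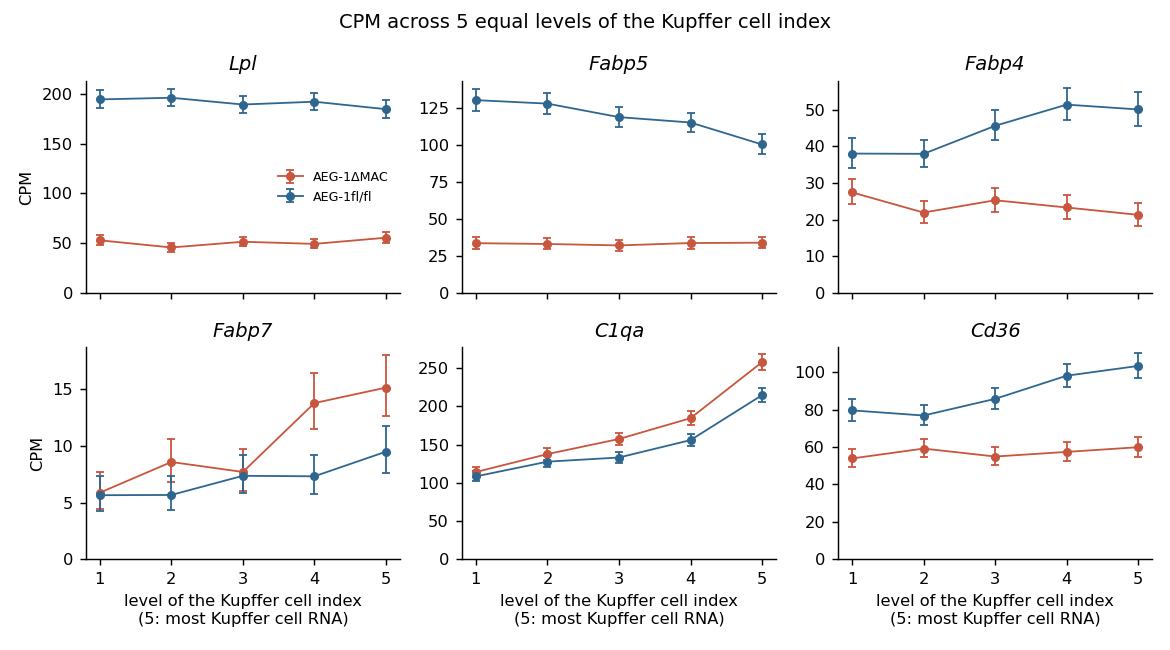
Level in CPM of Lpl, Fabp5, Fabp4, Fabp7 and Cd36, with C1qa as a macrophage gene, across 5 equal levels of the KC index from least (1) to most (5) KC RNA in AEG-1ΔMAC (red) and AEG-1fl/fl (blue), with exact Poisson 95% intervals (bars). C1qa climbs from 114 to 258 CPM and from 108 to 214 CPM, whereas Lpl stays between 45.7 and 55.5 CPM in AEG-1ΔMAC and between 185 and 196 CPM in AEG-1fl/fl.

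Whether Lpl and Fabp5 followed hepatocyte RNA could not be decided with these spots. Spots were ranked in the same way by the share of UMIs from Apoh, Ahsg, Fgb, Fga, Serpinc1 and Ttr, secreted proteins of the hepatocyte. This contrast was weak: the log2 ratio of the index genes themselves was 0.30 in AEG-1ΔMAC against 0.26 in AEG-1fl/fl. The 7 hepatocyte genes outside the index had medians of 0.12 in AEG-1ΔMAC against 0.11 in AEG-1fl/fl, the macrophage genes had 0.24 and 0.28, and all genes had -0.18 and -0.16. The macrophage genes thus rose more than the hepatocyte genes, so this ranking cannot place a gene with hepatocytes. Lpl was at -0.18 (interval -0.36 to 0.01) in AEG-1ΔMAC against 0.10 (interval 0.01 to 0.19) in AEG-1fl/fl, and Fabp5 at -0.18 (interval -0.42 to 0.05) and -0.35 (interval -0.47 to -0.23). Fabp1 and Fabp5 in AEG-1fl/fl were thus below the median of all genes, Fabp1 at -0.48. Lpl was above that median there, whereas in AEG-1ΔMAC Lpl lay at the median of all genes, -0.18. Neither value places Lpl with a cell type. Fabp4 again lay on opposite sides, at -0.64 (interval -0.92 to -0.37) and 0.20 (interval 0.00 to 0.39).

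In the AEG-1ΔMAC section, Lpl was higher in spots rich in MHC class II RNA, which marks antigen-presenting cells. In that library it was at 65.2 CPM in the top 20% and 39.3 CPM in the bottom 20% of spots by H2-Ab1, H2-Aa, H2-Eb1 and Cd74, for a log2 ratio of 0.73 (interval 0.54 to 0.92). In AEG-1fl/fl it was at 193 and 185 CPM, for a log2 ratio of 0.06 (interval -0.04 to 0.15). The macrophage genes were also higher in these spots, with medians of 0.83 and 0.63, and all 4 MHC class II genes were higher in AEG-1ΔMAC as a library. Lpl in AEG-1ΔMAC was further higher in spots rich in cholangiocyte RNA by 0.48, in hepatic stellate cell RNA by 0.38 and in vessel wall RNA by 0.38, against 0.07, 0.09 and 0.04 in AEG-1fl/fl. It was lower by -0.34 in the deepest spots of AEG-1ΔMAC, those with most total UMIs, and the part of spot depth in these contrasts was not tested. Whether the contrasts differ between the libraries was not tested either.

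Cd36 and Fabp4 were higher in endothelium-rich spots of both sections, and in spots ranked by several other cell types. Ranked by Clec4g, Stab2, Fcgr2b, Ptprb and Kdr of the sinusoidal endothelium, Cd36 was higher by 0.32 in AEG-1ΔMAC against 0.61 in AEG-1fl/fl, and Fabp4 by 0.43 and 0.64, with all intervals above 0. The macrophage genes had medians of 0.19 and 0.17 in this contrast. Cd36 was also higher in MHC class II-rich spots, by 0.35 and 0.38, and in stellate cell-rich spots, by 0.30 and 0.44. In hepatocyte-rich spots it was at 0.15 (interval -0.03 to 0.32) and 0.46 (interval 0.32 to 0.60). Fabp4 was higher in MHC class II-rich spots, by 0.65 and 0.62, and in stellate cell-rich spots, by 0.76 and 0.45. Endothelium-rich spots of AEG-1fl/fl were shallower than endothelium-poor ones, with medians of 16087 and 17971 UMIs, and in the deepest over the shallowest spots of that library Cd36 was at -0.34 and Fabp4 at -0.28. The part of depth in these contrasts was not tested. The index of lipid-associated macrophages, a class known for Lpl and Fabp5 in fatty liver, rested almost entirely on Ctsd and Cd9, since Trem2, Gpnmb, Itgax and Cd63 had 6 to 60 UMIs per library. Along it Lpl was at 0.15 and 0.01 and Fabp5 at 0.06 and -0.04, with all 4 intervals holding 0. The macrophage genes had medians of only 0.17 and 0.09 along this index. It thus hardly separated macrophage RNA and cannot place Lpl or Fabp5.

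**Figure D5:**
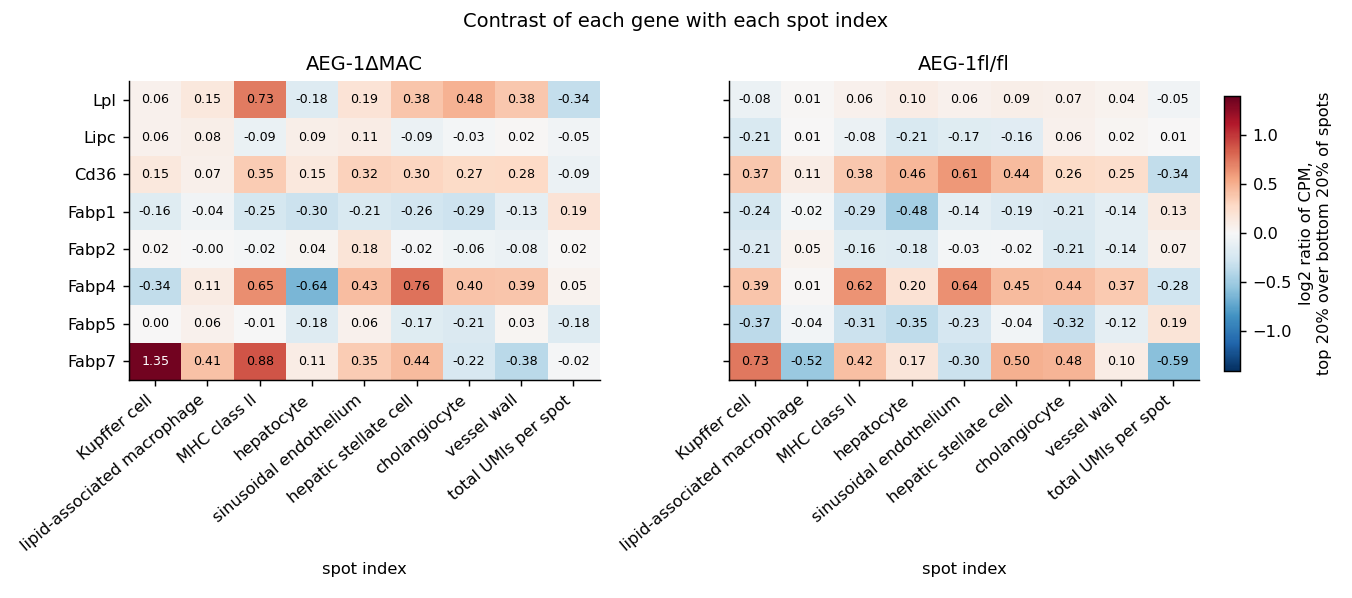
Log2 ratio of CPM in the top over the bottom 20% of spots (colour and printed value) for 8 members (rows; Vldlr is left out for its few UMIs) and 9 spot indexes (columns) in AEG-1ΔMAC (left) and AEG-1fl/fl (right). Fabp7 has the highest value, 1.35 with the KC index in AEG-1ΔMAC. Lpl runs from -0.34 to 0.73 over the columns in AEG-1ΔMAC but from -0.08 to 0.10 in AEG-1fl/fl.

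Over the tissue, the genes patterned most like Lpl included Slc1a2, one of the zone 3 landmarks. Across 30 bins (10 zone bins by 3 levels of the KC index), the 5 of 4643 genes with the most similar profile in both libraries were Ces2c, Nrn1, Slc1a2, Cs and Fmo1. Their Pearson r with Lpl was 0.86 to 0.87 in AEG-1ΔMAC against 0.91 to 0.95 in AEG-1fl/fl. None of them shared its lower level in AEG-1ΔMAC, with log2 ratios from 0.13 for Fmo1 to 1.23 for Ces2c. Within the set, by the lower of both values, Fabp2 was closest to Lpl, with r of 0.79 and 0.88, followed by Fabp4 with 0.74 and 0.79. The bins come from a single library each and share its zonal gradient, so these values describe the sections and carry no test.

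By the lower of both values of r, no gene was as close to Fabp5 as the nearest genes were to Lpl. The 5 genes nearest to Fabp5 by this rule were Cdc37l1, Fam222b, Echdc1, Ppdpf and Asgr2. They had a Pearson r of 0.47 to 0.67 in AEG-1ΔMAC against 0.46 to 0.65 in AEG-1fl/fl, and log2 ratios between the libraries from -0.17 to 0.33. Lpl and Fabp5, the members with the lowest ratios, were alike along the tissue in AEG-1fl/fl, with r of 0.68, and much less so in AEG-1ΔMAC, with r of 0.18. Fabp5 had 1513 UMIs in all over the AEG-1ΔMAC bins, and the part of counting error in its values of r there was not tested. The closest member to Fabp5 in AEG-1fl/fl was Fabp1, with r of 0.82, against 0.26 in AEG-1ΔMAC.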

How the data were processed

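Spatial transcriptomics was run with the 10x Visium kit for formalin-fixed tissue, in which probe pairs against each transcript carry the barcode of the spot beneath them. Per the submitters' processing notes, the authors used Space Ranger 2.0.1, Seurat 4.3.0 and the mm10 build. Each deposited matrix gives, for a gene in a spot, the UMI count without normalisation. The deposited matrices held 2149 AEG-1ΔMAC and 2543 AEG-1fl/fl spots, the numbers the study gives as left after its filter. Its stated thresholds (spots over 50000 UMIs, or with fewer than 100 or more than 7000 genes) still removed 9 and 3 of these here, so the 2140 and 2540 spots kept are fewer than in the study. UMIs were summed per library and divided by the library total (CPM), and log2 ratios were taken as AEG-1ΔMAC over AEG-1fl/fl. Levels were compared within a gene only, since probes bind unequally. A count of 0 allows up to 3 UMIs, or 0.0660 and 0.0596 CPM.

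CPM had exact Poisson 95% intervals and ratios exact conditional binomial (Clopper-Pearson) 95% intervals, which cover counting error only. With 1 library per genotype no test was run, and spots were not replicates. A gene was counted when it averaged 10 CPM, passed the fold (2 between libraries, 1.5 between zone parts, 1.2 in the KC contrast) and had its interval on the same side. The zone index was the mean scaled value of Cyp2e1, Cyp1a2 and Oat minus that of Pck1, Hal, Gls2, Cyp2f2, Hsd17b13 and Arg1. Fabp5 was kept out of the KC index as a member, and Marco because it differed between the libraries (13.9 and 36.1 CPM). Lyz2, the Cre driver, had 25 and 41 UMIs. Named were the 9 members, the extremes of each pathway list with further list genes chosen after their values were seen, and the 5 genes with the most similar pattern to Lpl and to Fabp5 among genes averaging 20 CPM. The members, lists and thresholds were chosen with earlier results of these data known.

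Alternatives were other scalings (edgeR 4.0.16 TMM and DESeq2 1.42.0 size factors, no count test), other spot filters, indexes and tails, and spots thinned to 5000 UMIs, which left out 12 AEG-1ΔMAC and 8 AEG-1fl/fl spots. Analyses used Python 3.11.15, scipy 1.17.1 and R 4.3.3, and the scripts were tested on simulated data. Coordinates came from GENCODE M21 on GRCm38 (the assembly of mm10).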

Additional observations from a re-analysis of the deposited data

Results flagged for a closer look

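Fabp4 lay on opposite sides in the 2 libraries in a pair of spot contrasts. In KC-rich over KC-poor spots its log2 ratio was -0.34 in the AEG-1ΔMAC section and 0.39 in the AEG-1fl/fl section. In spots with most over least hepatocyte RNA it was -0.64 and 0.20. The difference was not tested, and 3 alternative rankings moved one of the KC values to the other side, as given below.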

How the results depend on the processing

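Fabp5 and Lpl were lower in AEG-1ΔMAC under all 6 alternatives for scaling, spot filter and thinning. The log2 ratio of Lpl was -2.04 with TMM factors, -2.04 with median-of-ratios factors, -2.05 with a total that leaves out the 50 most abundant genes and -1.81 in thinned spots, and that of Fabp5 was -1.96, -1.97 and -1.98 under the first 3. These scalings moved the median of all genes from 0.15 to 0.02, 0.02 and 0.00 by construction. With TMM factors, 67 genes were 2-fold higher and 48 lower, against 88 and 36, and Fabp4, at -1.02, joined Lpl and Fabp5 as the third member 2-fold lower. At a ratio of 1.5, 298 and 124 genes and 4 members (lower) passed, and at a minimum of 1 CPM, 194 and 173 genes.

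In the outer 10% of the zone index the zonal log2 ratio of Lpl was 1.48 in AEG-1ΔMAC against 1.11 in AEG-1fl/fl, and in thinned AEG-1ΔMAC spots 1.04. The outer 10% also moved Cd36 to 0.41 and 0.33 and Fabp7 in AEG-1ΔMAC to -0.51, the last on 41 and 29 UMIs. The KC contrast of Lpl in AEG-1ΔMAC was 0.21 with an index of other macrophage genes. The KC contrast of Fabp5 was -0.59 in AEG-1ΔMAC against -0.22 in AEG-1fl/fl after thinning, and without zone bins the AEG-1fl/fl values were -0.55 for Fabp5 and -0.43 for Lpl. The contrast of Fabp4 turned to 0.057 with an index of other macrophage genes and to 0.20 with thinning in AEG-1ΔMAC, and to -0.11 without zone bins in AEG-1fl/fl. The cause was not tested. Ranking inside 3 levels of spot depth, an alternative chosen after seeing the data, kept all KC contrasts within their intervals.

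Depth limits Vldlr and Fabp7 most, and no alternative stands in for further mice. No paired analysis was possible because each genotype has 1 library.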
